A study of Homo sapiens with 5 samples.

Results

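The serpin genes are the 34 protein-coding genes of the RefSeq GRCh38.p14 gene table whose symbols run from SERPINA to SERPINI with a number, out of 19974 protein-coding genes on the autosomes and the X chromosome. The rule uses the symbols and no measured value. They were scored in chromatin immunoprecipitation sequencing (ChIP-seq) of HT1376, an established human bladder carcinoma cell line, with antibodies against EZH2 and against H3K27me3. Cells were given 250 nM of the EZH2 inhibitor CPI-0209 or the vehicle DMSO for 8 days, and each antibody and condition has 1 library. Each library is a list of called intervals in hg38, without read counts, scores or p-values, so depth is unknown and no test between CPI-0209 and DMSO was possible. The lists hold no expression values, and the identity of the cells could not be checked against marker genes. A gene end was called marked when an interval overlapped the window of 2 kb either side of it by at least 1 bp. A missing interval is no evidence that a mark was missing. Brackets give exact (Clopper-Pearson) 95% binomial limits, which cover counting error only. For a count of 0 the share that 3 counts would make is given in place of that limit. Genes in 1 cluster are not independent of each other.

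Serpins are a family of proteins that share a fold with an exposed loop, and most of them inhibit serine or cysteine proteases by offering that loop as a bait and trapping the enzyme. Clade A members are mostly plasma proteins made in the liver, clade B members mostly stay inside cells and guard them against stray proteases, and the other clades hold regulators of clotting, fibrinolysis and complement, as well as members that inhibit nothing, such as a collagen chaperone. EZH2 is the enzyme of Polycomb repressive complex 2, and methylates lysine 27 of histone H3, and the trimethylated product, H3K27me3, marks repressed chromatin. CPI-0209 blocks the catalytic activity of EZH2.

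Most serpin genes had no called interval of either mark at their ends. H3K27me3 was called at 1 or both ends of 3 of 34 serpin genes in CPI-0209 (8.82%, 1.86 to 23.7) and of 6 in DMSO (17.6%, 6.76 to 34.5), whereas 21.7% of all protein-coding genes were marked in CPI-0209 and 31.3% in DMSO. The 3 genes of CPI-0209 were SERPINB9, SERPINE2 and SERPINF2, and all 3 were also marked in DMSO. SERPINE3, SERPINF1 and SERPING1 were marked in DMSO alone, 3 of 34 against 10.0% of all genes. No serpin gene was marked in CPI-0209 alone (0 of 34, where 3 counts would make 8.82%), against 0.441% of all genes. Both ends were marked at 1 serpin gene in CPI-0209, SERPINB9, and at 3 in DMSO, SERPINB9, SERPINF2 and SERPING1 (all genes, 8.68% in CPI-0209 and 15.2% in DMSO). EZH2 was called at 13 serpin genes in CPI-0209 (38.2%, 22.2 to 56.4) and at 8 in DMSO (23.5%, 10.7 to 41.2), beside 71.5% of all genes in CPI-0209 and 54.6% in DMSO. Both ends had EZH2 at SERPINB9 and SERPINF2 in CPI-0209 (25.9% of all genes) and at SERPINB9 in DMSO (17.5%). Of these genes, 7 were marked with EZH2 in both conditions (52.0% of all genes). Another 6 were marked in CPI-0209 alone, 17.6% of the serpins and close to the 19.5% of all genes. SERPINB10 was the only serpin marked with EZH2 in DMSO alone, beside 2.63% of all genes. The remaining 19 serpin genes (55.9%, 37.9 to 72.8) had no interval of any of the 4 lists at either end, beside 22.5% of all genes. The order of the conditions was the opposite when the longer list of each antibody was shortened. With the DMSO list of H3K27me3 cut to its widest intervals, until it covered the same length as the CPI-0209 list, 3 serpin genes were marked in CPI-0209 and 0 in DMSO, and with the EZH2 list of CPI-0209 cut to the length of the DMSO list, 5 were marked in CPI-0209 and 8 in DMSO. Both cuts select by width as well as amount. The cut of the DMSO list kept H3K27me3 intervals of 33.2 kb and wider, and the widest DMSO piece at a serpin end measured 23.2 kb. The cut of the CPI-0209 list kept EZH2 intervals of 4.2 kb and wider. Narrower EZH2 pieces, such as 3.8 kb at SERPINA1 and 1.8 kb at SERPINB6, could not be kept.

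**Figure D1:**
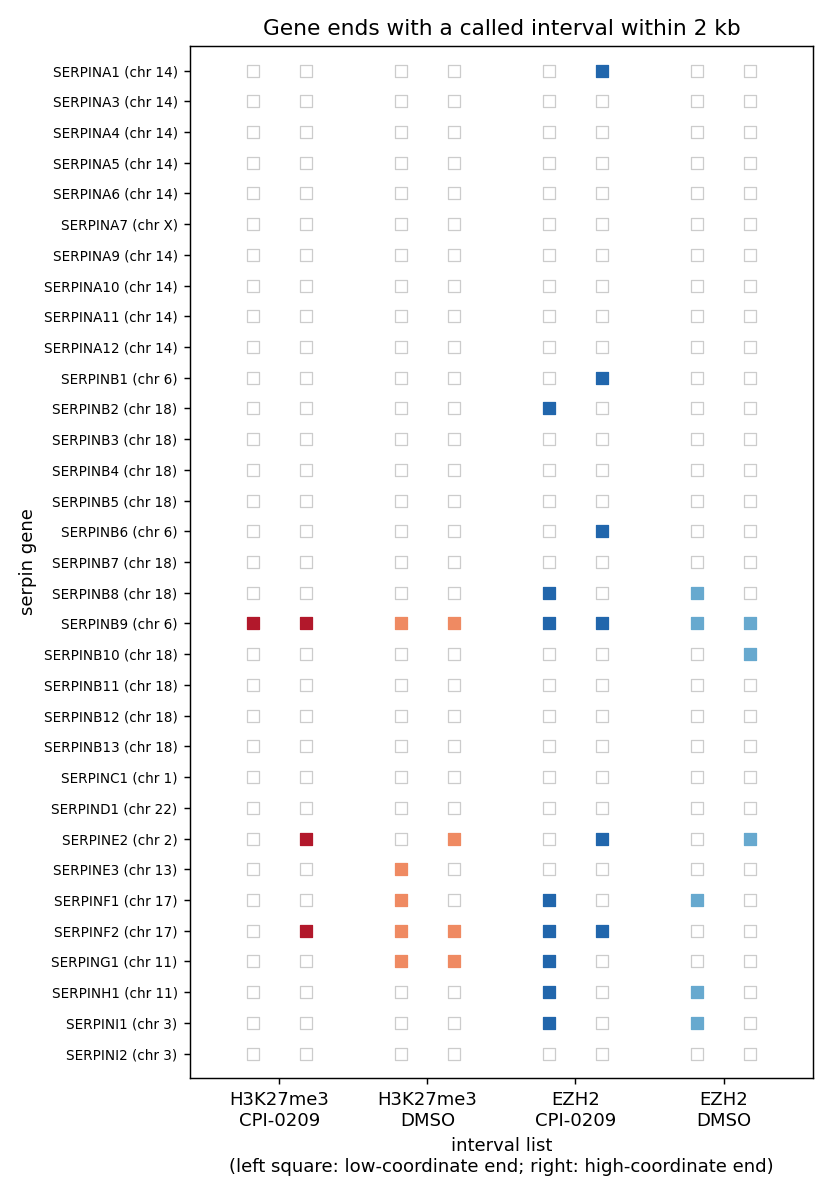
Squares show, for 33 serpin genes (rows) and each of the 4 interval lists (columns), whether the low-coordinate end (left square) and the high-coordinate end (right square) had a called interval within 2 kb; filled squares are marked ends. H3K27me3 fills ends of 3 genes in CPI-0209 and 6 in DMSO, and EZH2 fills ends of 12 in CPI-0209 and 7 in DMSO, with almost all of clade A empty.

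H3K27me3 was called at 4 of the 68 ends of serpin genes in CPI-0209 (15.2% of all ends) and at 9 in DMSO (23.2%), and EZH2 at 15 in CPI-0209 (48.7%) and 9 in DMSO (36.0%). Of the 68 ends, 4 carried both marks in CPI-0209 (14.8% of all ends) and 4 in DMSO (15.8%). EZH2 without H3K27me3 was found at 11 ends in CPI-0209 (33.9% of all) and 5 in DMSO (20.2%). H3K27me3 without EZH2 was found at 0 ends in CPI-0209 and at 5 in DMSO. Over all 39948 ends of protein-coding genes, H3K27me3 without EZH2 made up 0.393% in CPI-0209 and 7.45% in DMSO. All 4 serpin ends marked with H3K27me3 in CPI-0209 thus lay within reach of an EZH2 interval of the same condition. The same held for 5918 of the 6075 ends of all genes marked with H3K27me3 in CPI-0209, so it was not particular to serpins.

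The RefSeq promoter table (GRCh38.p14) gave the strand and 41 promoters for 27 of the 34 members. SERPINB10, SERPINB11, SERPINC1, SERPINF1, SERPINF2 and SERPING1 were among those with no entry. A promoter here runs from 250 bases before to 50 bases after an annotated start. Among the 27 genes, EZH2 was within 2 kb of the start of 9 in CPI-0209 (68.9% of all genes with a strand) and of 5 in DMSO (50.3%). The opposite end was marked at 1 of the 27 in each condition, SERPINB9 (27.9% of all in CPI-0209 and 20.9% in DMSO). No serpin gene with a known strand had EZH2 at its far end alone, a state that was also rare among all 15813 genes with a strand (491 in CPI-0209 and 712 in DMSO). Members without an entry could not be scored for this, among them SERPINB10, which had EZH2 at its high end alone in DMSO. H3K27me3 was within reach of the start of 2 genes in CPI-0209 (16.9% of all) and 3 in DMSO (24.4%), and of the far end of 1 in each (10.8% of all in CPI-0209 and 19.1% in DMSO).

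Serpin promoters were poor in the dinucleotide CG (read 5′ to 3′, the same on both strands), and those without EZH2 had the lowest median. The 41 serpin promoters held a median of 4 CG per 300 bases and the 22156 promoters of all protein-coding genes a median of 21; 95.1% of the serpin promoters and 98.1% of all promoters held at least 1. H3K27me3 intervals covered part of 2 serpin promoters in CPI-0209 (15.5% of all promoters) and of 4 in DMSO (21.4%). EZH2 intervals covered part of 13 serpin promoters in CPI-0209 (65.9% of all promoters) and of 6 in DMSO (48.5%). The 6 promoters with EZH2 in both conditions, of SERPINB8, SERPINB9, SERPINE2, SERPINH1 and SERPINI1, held 9 to 35 CG with a median of 28. The 7 with EZH2 in CPI-0209 alone, of SERPINA1, SERPINB1, SERPINB2 and SERPINB6, held 1 to 45 with a median of 27. Of these 7, 3 are overlapping windows of SERPINB6 with 32, 43 and 45 CG under 1 interval, while SERPINA1 with 8 and 12 and SERPINB2 with 1 lie below the median of all promoters. The 28 promoters without EZH2 held 0 to 16 with a median of 3. Among the 25 serpin promoters with 0 to 7 CG, from 18 genes, EZH2 was called over 1 in CPI-0209, that of SERPINB2, and over 0 in DMSO. In all 5771 promoters with so few it was called over 21.7% in CPI-0209 and 17.5% in DMSO. Among the 8 serpin promoters with 8 to 21 CG, from 7 genes, it was called over 4 in CPI-0209 and 2 in DMSO. Of all promoters with 8 to 21 CG, 69.3% carried EZH2 in CPI-0209 and 52.8% in DMSO. The 4 serpin promoters with 22 to 31 CG belong to 3 genes and include overlapping windows of SERPINH1. EZH2 was called over all 4 in CPI-0209 and over 3 in DMSO. Those with 32 or more are 4 promoters of only 2 genes, SERPINB9 and SERPINB6. Of these, all 4 carried EZH2 in CPI-0209 and 1 in DMSO. Among all promoters with 22 to 31 CG the share was 85.3% in CPI-0209 and 63.2% in DMSO, and with 32 or more it was 90.3% in CPI-0209 and 62.4% in DMSO. The sequences that follow, each 5′ to 3′ with every CG in capitals, show promoters for some of the patterns of calls. The pattern of EZH2 in both conditions without H3K27me3, as at SERPINB8, SERPINH1 and SERPINI1, is not among them. SERPINB9 (chr6:2903260-2903559, minus strand, 35 CG) and SERPINE2 (chr2:224038591-224038890, minus strand, 31 CG) carried both marks in both conditions. SERPINA1 (chr14:94390586-94390885, minus strand, 8 CG) and SERPINB2 (chr18:63887455-63887754, plus strand, 1 CG) carried EZH2 in CPI-0209 alone. SERPINE3 (chr13:51339441-51339740, plus strand, 10 CG) carried H3K27me3 in DMSO alone. SERPINB5 (chr18:63476708-63477007, plus strand, 16 CG) carried no interval although it was the richest in CG of the promoters without EZH2.
SERPINB9: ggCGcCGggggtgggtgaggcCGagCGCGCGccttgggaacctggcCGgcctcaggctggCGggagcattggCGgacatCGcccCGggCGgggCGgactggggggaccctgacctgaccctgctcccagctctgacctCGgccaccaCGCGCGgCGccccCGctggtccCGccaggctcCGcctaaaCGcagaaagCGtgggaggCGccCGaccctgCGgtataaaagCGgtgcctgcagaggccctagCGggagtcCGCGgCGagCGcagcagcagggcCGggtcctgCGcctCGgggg
SERPINE2: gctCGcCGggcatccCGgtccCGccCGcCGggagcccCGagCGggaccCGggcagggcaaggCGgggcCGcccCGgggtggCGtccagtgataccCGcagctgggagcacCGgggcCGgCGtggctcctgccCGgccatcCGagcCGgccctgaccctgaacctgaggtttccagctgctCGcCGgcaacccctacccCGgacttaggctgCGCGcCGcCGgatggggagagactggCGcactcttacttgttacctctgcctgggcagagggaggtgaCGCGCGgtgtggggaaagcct
SERPINA1: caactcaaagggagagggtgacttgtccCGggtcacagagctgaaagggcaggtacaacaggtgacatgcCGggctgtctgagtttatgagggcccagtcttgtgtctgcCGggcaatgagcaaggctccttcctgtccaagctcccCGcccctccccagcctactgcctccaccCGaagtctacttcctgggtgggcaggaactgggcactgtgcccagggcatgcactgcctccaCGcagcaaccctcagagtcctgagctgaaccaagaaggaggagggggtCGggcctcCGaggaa
SERPINB2: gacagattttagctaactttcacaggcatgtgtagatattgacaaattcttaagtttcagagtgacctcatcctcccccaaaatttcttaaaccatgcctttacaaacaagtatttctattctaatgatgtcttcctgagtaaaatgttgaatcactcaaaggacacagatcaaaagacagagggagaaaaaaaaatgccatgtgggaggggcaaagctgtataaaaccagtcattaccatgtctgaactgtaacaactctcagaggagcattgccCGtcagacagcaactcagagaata
SERPINE3: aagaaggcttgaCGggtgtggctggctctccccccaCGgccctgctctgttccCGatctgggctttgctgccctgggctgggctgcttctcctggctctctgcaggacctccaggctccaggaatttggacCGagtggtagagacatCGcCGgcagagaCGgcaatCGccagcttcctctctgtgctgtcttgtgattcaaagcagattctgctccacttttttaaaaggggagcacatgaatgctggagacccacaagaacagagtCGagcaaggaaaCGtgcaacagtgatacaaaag
SERPINB5: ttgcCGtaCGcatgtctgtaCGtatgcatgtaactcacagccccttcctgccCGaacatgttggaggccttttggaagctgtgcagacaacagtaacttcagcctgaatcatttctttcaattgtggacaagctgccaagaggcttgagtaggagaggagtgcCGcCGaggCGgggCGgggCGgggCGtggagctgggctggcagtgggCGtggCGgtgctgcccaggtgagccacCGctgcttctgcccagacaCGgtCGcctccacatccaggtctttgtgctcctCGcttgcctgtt

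**Figure D2:**
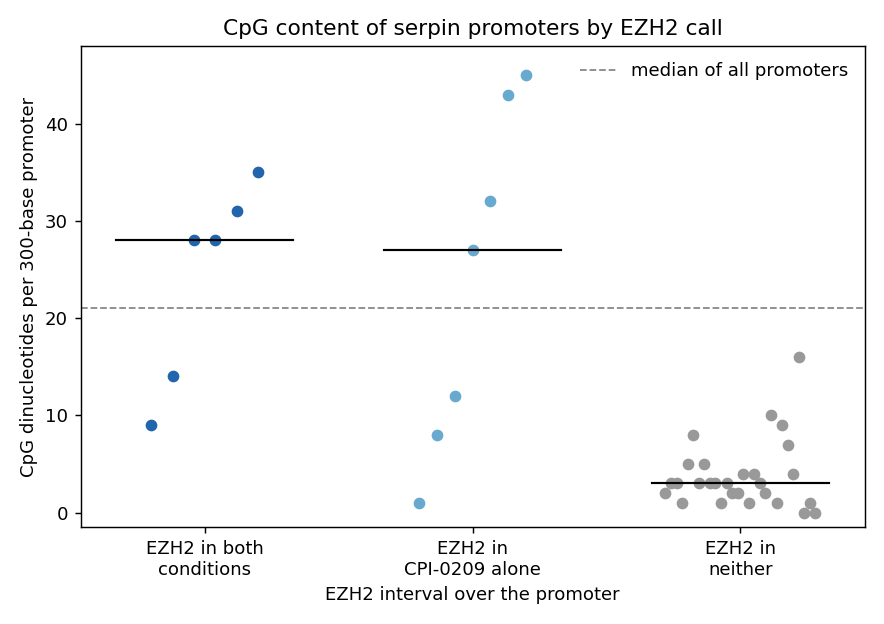
Points are the 41 serpin promoters, by whether an EZH2 interval overlapped them (x axis) and by their number of CG dinucleotides per 300 bases (y axis); black lines are medians and the dashed line is the median of all promoters, 21. Promoters with EZH2 in both conditions and in CPI-0209 alone have medians of 28 and 27, and those without have a median of 3.

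Where H3K27me3 was called at a serpin gene in CPI-0209, it covered less of the gene than in DMSO. SERPINB9, an intracellular inhibitor of granzyme B that protects cells from their own or incoming cytotoxic granules, lies on chromosome 6 (2887270 to 2903309). H3K27me3 covered 43.1% of its record in CPI-0209, in pieces of 3.0 kb and 4.2 kb, and 99.2% in DMSO, under a piece of 16.2 kb. The upper CPI-0209 piece (2899401 to 2903600) ended at the same base as the DMSO piece and covered the promoter. EZH2 covered 55.5% of the record in CPI-0209 and 64.3% in DMSO, and its pieces lay over the start and near the far end in both conditions. The EZH2 piece over the start measured 9.0 kb in CPI-0209 and 6.4 kb in DMSO. SERPINB9 was the only serpin with both ends under both marks in both conditions.

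SERPINE2, which encodes protease nexin, an inhibitor of thrombin and plasminogen activators outside cells, lies on chromosome 2 (223975045 to 224039286). The H3K27me3 piece over its start measured 1.2 kb in CPI-0209 and 8.8 kb in DMSO, and the EZH2 piece measured 3.6 kb in CPI-0209 and 7.4 kb in DMSO. A further H3K27me3 piece of 6.6 kb inside the gene was called in DMSO alone. Both marks at the start were thus narrower in CPI-0209. The other listed promoter, which lies inside the gene record and holds 8 CG, had no interval of any list.

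SERPINF2 and SERPINF1 lie side by side on chromosome 17 (1742871 to 1755265 and 1762060 to 1777565). SERPINF2 encodes the main plasma inhibitor of plasmin, and SERPINF1 encodes pigment epithelium-derived factor, a secreted serpin that blocks blood vessel growth and does not inhibit proteases. H3K27me3 covered 8.59% of SERPINF2 in CPI-0209 and 59.7% in DMSO. The piece at the high end measured 4.8 kb in CPI-0209 and 5.2 kb in DMSO, and a piece of 7.4 kb at the low end was called in DMSO alone. EZH2 covered 79.6% of SERPINF2 in CPI-0209, the highest share of any serpin record in that list, and 0% in DMSO. The nearest EZH2 interval in DMSO began 2.74 kb above the record, outside the window, and reached the low end of SERPINF1. At SERPINF1 the H3K27me3 piece, of 1.6 kb, was called in DMSO alone, while EZH2 at the low end was called in both conditions, over 6.07% of the record in CPI-0209 and 9.94% in DMSO. SERPINF2 was the only serpin with H3K27me3 called in both conditions and EZH2 in CPI-0209 alone.

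SERPING1 and SERPINE3 had H3K27me3 in DMSO only. SERPING1, which encodes the C1 inhibitor that holds complement and contact activation in check, lies on chromosome 11 (57597685 to 57614848). H3K27me3 covered 0% of its record in CPI-0209 and 72.0% in DMSO, in pieces of 11.6 kb and 11 kb over the low and the high end. An EZH2 piece of 3.2 kb at the low end was called in CPI-0209, and in DMSO the nearest EZH2 interval lay 18.8 kb away. The gene thus had EZH2 without H3K27me3 in CPI-0209 and H3K27me3 without EZH2 in DMSO. SERPINE3, a little studied member on chromosome 13 (51339691 to 51364735), had 0% of its record under H3K27me3 in CPI-0209 and 38.8% in DMSO. The DMSO piece measured 15.6 kb and also overlapped INTS6, a subunit of the Integrator complex. No EZH2 interval touched SERPINE3, and the nearest lay 58.3 kb away in CPI-0209 and 46.1 kb away in DMSO.

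SERPINB8, an intracellular inhibitor of furin and other proteases, carried H3K27me3 inside the gene and not at its ends (chromosome 18, 63970081 to 64019779). The inner piece measured 4.4 kb in CPI-0209 (63998801 to 64003200) and 8.0 kb in DMSO (63997401 to 64005400), and EZH2 overlapped it in both conditions, with 6.0 kb in CPI-0209 and 4.6 kb in DMSO. A further H3K27me3 piece of 3.2 kb was called in DMSO alone. Counting any overlap with a gene record, 4 serpins met H3K27me3 in CPI-0209 (22.9% of all genes) and 7 in DMSO (30.5%), and 13 met EZH2 in CPI-0209 (73.8%) and 8 in DMSO (56.6%). Over all serpin records with 2 kb either side, 904.4 kb together, H3K27me3 covered 15.9 kb in CPI-0209 and 84.4 kb in DMSO. Of the DMSO length 18.8% was called again in CPI-0209, and in the whole lists it was 35.8%.

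**Figure D3:**
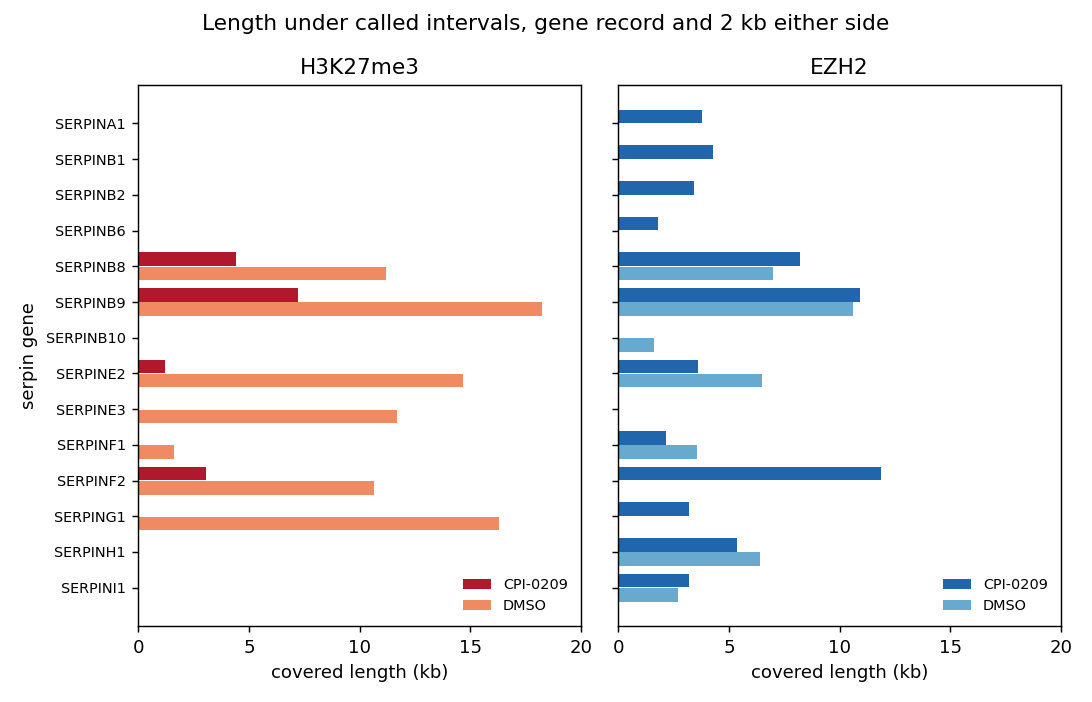
Bars show the length under called intervals, in kb, within each gene record and 2 kb either side, for 14 serpin genes with an interval there; H3K27me3 is on the left and EZH2 on the right, with CPI-0209 above DMSO. H3K27me3 is shorter in CPI-0209 at each of the 7 genes that have it, and EZH2 is longer at some genes and shorter at others.

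EZH2 without H3K27me3 in either list was found near the ends of 9 serpin genes, and 4 of these had it in CPI-0209 alone. SERPINB1, the leukocyte elastase inhibitor (chromosome 6, 2832332 to 2841863), had a 4.4 kb piece over its start in CPI-0209, and the nearest EZH2 interval in DMSO lay 45.9 kb away. SERPINB6, an inhibitor of cathepsin G (chromosome 6, 2948159 to 2971793), had a 1.8 kb piece over its outermost starts in CPI-0209, against 8.56 kb to the nearest interval in DMSO. SERPINA1, which encodes alpha-1-antitrypsin, the main plasma inhibitor of neutrophil elastase (chromosome 14, 94376747 to 94390635), had a 3.8 kb piece over both of its listed promoters in CPI-0209, and in DMSO the nearest lay 199.9 kb away. SERPINB2, plasminogen activator inhibitor type 2 (chromosome 18, 63887705 to 63903888), had a 3.4 kb piece over its start in CPI-0209 (63886001 to 63889400). In DMSO a 3.0 kb EZH2 interval ended 2.90 kb before the gene, just outside the window. With windows of 5 kb, SERPINB2 and SERPINF2 were both called for EZH2 in CPI-0209 and in DMSO, and SERPINF1 for H3K27me3 in both.

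At the genes with EZH2 in both conditions and no H3K27me3 at their ends, the end pieces measured 2.2 to 6.4 kb and lay at similar places in both. SERPINH1, the collagen chaperone of the endoplasmic reticulum (chromosome 11, 75562253 to 75572783), had 6.0 kb in CPI-0209 and 6.4 kb in DMSO over its start. SERPINI1, neuroserpin, an inhibitor of tissue plasminogen activator in the nervous system (chromosome 3, 167735721 to 167825569), had 3.2 kb in CPI-0209 and 5.2 kb in DMSO, and in both conditions the piece also overlapped the neighbouring gene PDCD10. SERPINB8 had 2.2 kb in CPI-0209 and 2.4 kb in DMSO at its start. Each of these 3 pieces was narrower in CPI-0209. At SERPINB10, a serpin of blood cells, a piece of 1.6 kb was called at the high end in DMSO alone. Over the serpin records with 2 kb either side, EZH2 covered 63.9 kb in CPI-0209 and 41.9 kb in DMSO, a ratio of 1.53, and in the whole lists the ratio was 1.17. Of the DMSO length at the serpins, 73.4% was called again in CPI-0209, beside 78.2% in the whole lists.

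The 3 serpin clusters differed in how much of them was called. On chromosome 14, 9 clade A genes span 343.6 kb (94280460 to 94624053). H3K27me3 covered 0% of this span in CPI-0209 and 1.28% in DMSO, and EZH2 covered 2.56% in CPI-0209 and 0% in DMSO. No gene of the cluster had H3K27me3 at an end in either condition (0 of 9, where 3 counts would make 33.3%). Of all genes, 21.7% had it in CPI-0209 and 31.3% in DMSO, both below that 33.3%. The single H3K27me3 piece, of 4.4 kb, lay in DMSO between the pseudogene SERPINA2 and SERPINA1 (94369201 to 94373600), and an EZH2 piece of 5.0 kb was called over most of it in CPI-0209 (94368001 to 94373000). Its genes besides SERPINA1 had no interval of any list at their ends. They encode the protease inhibitors antichymotrypsin (SERPINA3), kallistatin (SERPINA4), protein C inhibitor (SERPINA5) and the protein Z-dependent inhibitor (SERPINA10), the cortisol carrier (SERPINA6), the adipokine vaspin (SERPINA12), the B cell serpin SERPINA9, and SERPINA11.

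On chromosome 18, 10 clade B genes span 542.8 kb (63476958 to 64019779). H3K27me3 covered 0.811% in CPI-0209 and 2.62% in DMSO, and EZH2 covered 2.25% in CPI-0209 and 2.14% in DMSO. All intervals lay in the part that holds SERPINB2, SERPINB10 and SERPINB8. The other 7 genes, which are known mostly from skin and other squamous epithelia, are SERPINB5 (maspin), SERPINB12, SERPINB13 (headpin), SERPINB4 and SERPINB3 (the squamous cell carcinoma antigens), SERPINB11 and SERPINB7 (megsin). All 7 lay in 1 stretch of 456.6 kb (63425201 to 63881800) without an interval of any list. Around all protein-coding genes free of calls, such stretches had an upper quartile of 680.4 kb. SERPINB3 and SERPINB4 are near copies, with 296 of 300 promoter bases the same without gaps, so reads from one cannot always be placed apart from the other and their missing calls are less certain.

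On chromosome 6, SERPINB1, SERPINB9 and SERPINB6 span 139.5 kb (2832332 to 2971793). H3K27me3 covered 16.8% of the span in CPI-0209 and 54.2% in DMSO, and EZH2 covered 24.9% in CPI-0209 and 11.2% in DMSO. In CPI-0209 there were 4 H3K27me3 pieces of 3.0 to 8.8 kb. In DMSO there were 5 pieces of 6.4 to 23.2 kb around SERPINB9, which ran with short gaps from 2861401 to 2942000. The CPI-0209 pieces all lay inside DMSO pieces, of which the lowest and the highest held none, with 31.0% of the DMSO length called again. Each of the 4 H3K27me3 pieces overlapped an EZH2 interval in CPI-0209, and 2 of 5 did in DMSO. EZH2 had 7 pieces in CPI-0209 and 3 in DMSO, and 84.6% of the DMSO length was called again. SERPINB1 and SERPINB6, at the borders of the span, lay outside the H3K27me3 pieces in both conditions, with the nearest piece 27.9 kb from SERPINB1 in CPI-0209 and 19.5 kb in DMSO, and 26.96 kb from SERPINB6 in CPI-0209 and 6.16 kb in DMSO. The difference in coverage between this cluster and the other clusters was not tested, since each cluster is 1 region.

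**Figure D4:**
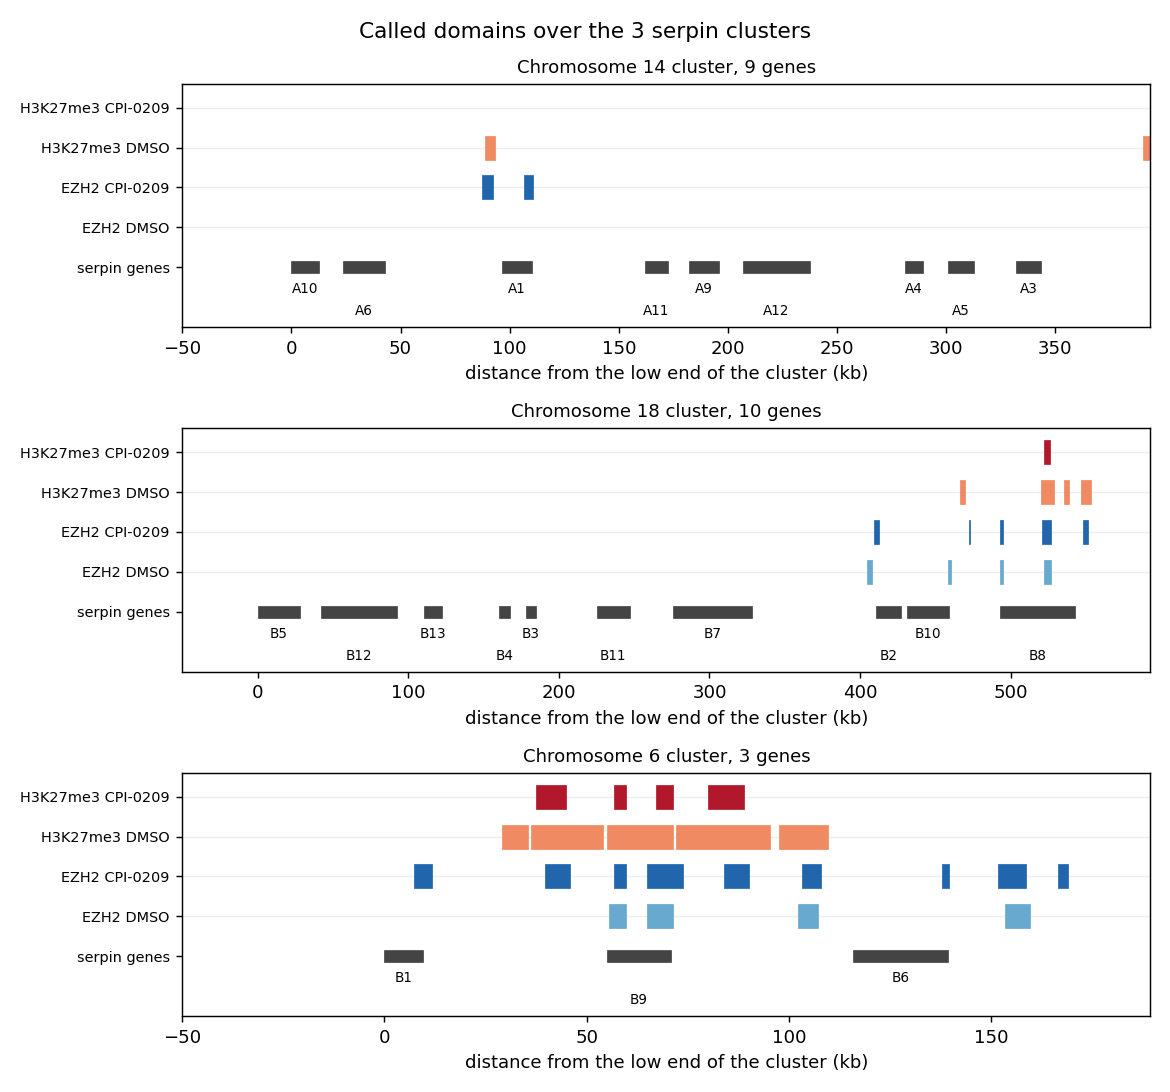
Boxes show called domains of the 4 lists over the serpin clusters of chromosomes 14, 18 and 6, with 50 kb either side; the x axis is the distance from the low end of the cluster in kb, and dark boxes are the serpin genes. The chromosome 14 cluster has only a few short pieces, at or near SERPINA1, and most of the chromosome 18 cluster is bare. On chromosome 6 each of the 4 H3K27me3 pieces of CPI-0209 lies inside a DMSO piece, and the lowest and the highest of the 5 DMSO pieces hold none.

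The nearest protein-coding genes around the clusters were scored in the same way. Above the chromosome 14 cluster GSC, a homeobox regulator of the embryo, had both marks at both ends in both conditions, and below it PPP4R4 had both marks at its low end in both. On chromosome 18, VPS4B below the cluster had EZH2 alone in both conditions, and HMSD, which lies between SERPINB10 and SERPINB8, had an EZH2 interval near each end in CPI-0209 and near 1 end in DMSO. On chromosome 6, NQO2 above the cluster had EZH2 in CPI-0209 alone, and neither it nor WRNIP1 below had H3K27me3. Farther out, GMDS below the chromosome 6 cluster had H3K27me3 at 1 end in CPI-0209 alone, and IFI27L2 below the chromosome 14 cluster had it at both ends in DMSO alone.

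Another 12 serpins lie outside the clusters. Of these, 2 had H3K27me3 in CPI-0209 and 5 in DMSO (41.7%, 15.2 to 72.3), and 7 had EZH2 in CPI-0209 and 5 in DMSO. Of all genes, 21.7% had H3K27me3 in CPI-0209 and 31.3% in DMSO, and 71.5% had EZH2 in CPI-0209 and 54.6% in DMSO. Whether these 12 serpins differ in this from the clustered members was not tested. Those without any interval were SERPINC1 (antithrombin), SERPIND1 (heparin cofactor II), SERPINA7 (thyroxine-binding globulin) and SERPINI2 (a pancreatic serpin). Among all 19 serpins without intervals, the stretch free of calls around the gene had a median of 279.8 kb and ran up to 1812 kb at SERPINI2. A stretch shared by neighbours counted once per gene, such as for 7 genes on chromosome 18 and 6 on chromosome 14. Over 3801 protein-coding genes whose record and both windows were free of intervals the median was 245.4 kb and the upper quartile 680.4 kb.

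The proteases that serpins act on and other inhibitor families were taken from lists chosen for their function. H3K27me3 was called at 6 of 17 clotting, fibrinolysis and complement proteases in CPI-0209 and at 10 in DMSO (58.8%, 32.9 to 81.6). F7, F10, KLKB1, MASP2, PROC and HGFAC were marked in both conditions, and F11, C1S, MASP1 and HABP2 in DMSO alone. F2 (thrombin), PLG (plasminogen), PLAU and PLAT (the plasminogen activators) were among the 7 marked in neither. The liver-made coagulation enzymes thus included genes with and without H3K27me3. SERPINC1 and SERPIND1, which inhibit thrombin, had no interval, while SERPINE2, another inhibitor of thrombin, had both marks at its start in both conditions. Among 26 leukocyte, epidermal and other proteases H3K27me3 was called at 12 in CPI-0209 and 13 in DMSO, among them ELANE and PRTN3, the neutrophil proteases, and TPSAB1, KLK1, KLK2 and KLK3 in both conditions. KLK5 was marked in DMSO alone, and GZMB, the target of SERPINB9, in neither. Of 30 other protease inhibitors 9 were marked in CPI-0209 and 11 in DMSO. WFDC2, SPINK2, TFPI2, ITIH1, ITIH3 and ITIH4 were marked in both, PI3 and ITIH2 in DMSO alone, and the remaining 19, such as A2M, PZP, SLPI and SPINK1, in neither. Of 10 partner, receptor and hormone genes 6 were marked in CPI-0209 and 7 in DMSO; AGT, LRP1, LRP2, VLDLR, SORL1 and KDR were marked in both. EZH2 was called at 12 of 17, 17 of 26, 16 of 30 and 9 of 10 genes of these lists in CPI-0209 and at 8, 15, 16 and 7 in DMSO. Beside these stand the shares of all genes, for H3K27me3 21.7% in CPI-0209 and 31.3% in DMSO, and for EZH2 71.5% in CPI-0209 and 54.6% in DMSO. No gene of the 4 lists had H3K27me3 in CPI-0209 alone.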

How the data were processed

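ChIP-seq of HT1376 cells gave 4 interval lists, 1 library per antibody and condition, and 1 input library was not used here. Per the file headers, the deposited lists hold the chromosome, start and end of each called interval and nothing else, with no score or count. The submitters' processing notes list BWA, SICER and hg38 but no versions, and the control and thresholds are not given in the sources used here. Starts and widths were checked to be multiples of 200 bp. Overlapping intervals of a list were merged, which left 113.8 Mb (H3K27me3 CPI-0209), 315.1 Mb (H3K27me3 DMSO), 226.3 Mb (EZH2 CPI-0209) and 193.4 Mb (EZH2 DMSO). What each list combines is not stated, and stretches under 2 intervals of a list, from 12.9% to 62.7% of its length, were also scored alone.

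Gene records and promoters came from RefSeq GRCh38.p14. Coordinates are printed counting from 1. Clusters are members within 500 kb of another. Scores were computed with Python 3.11.15, pandas 2.3.3 and SciPy 1.17.1, and the interval functions were tested on simulated data. With 1 library per group nothing was tested between conditions. Depth is unknown and can change how many intervals a library yields. The members and gene lists were chosen with earlier results of these data known. All 34 members enter the counts and summed lengths, and 1 of them is not reported by name here or plotted. Of each gene list, at most the first 6 genes of an outcome are named, and members whose promoters are printed were picked after their calls were seen.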

Additional observations from a re-analysis of the deposited data

How the results depend on the processing

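Of 60 recomputed counts and cluster coverages 36 stayed within 1.5 times the reported value and 24 did not. Windows of 1 kb, a cover of at least 50% of the window, and 10 kb added to the clusters moved none by more. With windows of 5 kb, H3K27me3 was called at 10 serpin genes in DMSO, 6 of them at neither end in CPI-0209. Over stretches covered by 2 intervals of a list, H3K27me3 was called at 0 serpin genes in CPI-0209 and 5 in DMSO, all 5 without such a stretch in CPI-0209, and EZH2 at 5 in CPI-0209 and 4 in DMSO, with 1 in CPI-0209 alone. The DMSO list of H3K27me3 cut to its 2695 widest intervals (33.2 kb and wider) marked 0 serpin genes, and none was then in DMSO alone (0); the cut can only lower that count. The EZH2 list of CPI-0209 cut in the same way (4.2 kb and wider) marked 5, with 2 in CPI-0209 alone. By gene starts of the 27 members with a strand, H3K27me3 in DMSO marked 3 genes, 1 of them not in CPI-0209, and EZH2 in DMSO marked 5; fewer genes and ends were scored there. Under stretches of 2 intervals, H3K27me3 covered 0% of chromosome 14 in DMSO, 0% of chromosome 18 in CPI-0209 and 1.44% in DMSO, and 0% of chromosome 6 in CPI-0209 and 31.7% in DMSO. EZH2 then covered 0% of chromosome 14 in CPI-0209, 1.18% of chromosome 18 in CPI-0209 and 0.258% in DMSO, and 11.5% of chromosome 6 in CPI-0209 and 2.87% in DMSO. Beyond the smaller length or number scored, the causes were not tested. No paired analysis was possible because each group has 1 library. The depth of the libraries is unknown, so missing calls set no limit on the marks.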

Other observations

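Beside the protein-coding members, 8 serpin pseudogenes and 1 serpin antisense RNA are in the same gene table. H3K27me3 covered 30.7% of the pseudogene SERPINB9P1 (chromosome 6, 2854657 to 2876510), which lies next to SERPINB9, in CPI-0209 and 65.5% in DMSO. EZH2 covered 20.6% of it in CPI-0209 and 0% in DMSO. SERPINB9-AS1, which overlaps SERPINB9, had 25.6% of its record under H3K27me3 in CPI-0209 and 94.0% in DMSO, and the lists do not tell the overlapping genes apart. SERPINA2, beside SERPINA1, had an EZH2 interval within 2 kb of 1 end in CPI-0209 and none in DMSO. The other pseudogenes, SERPINA7P1, SERPINA13P, SERPINA15P, SERPINB8P1, SERPINE4P and SERPINH1P1, had no interval of any list at their ends.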
